A study of Mus musculus with 11 samples.

Results

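The genes described here are 9 receptors, regulators and mediator enzymes of mast cells and basophils, namely Fcer1a, Ms4a2, Kit, Gata2, Mrgprb1, Mrgprb2, Hdc, Tph1 and Cyp11a1. They were picked by name, with their levels in these libraries already known, from a table of 37583 genes, and all 9 were found in it. RNA had been sequenced from EGFP+ cells that were sorted by 2 rounds of cell sorting from the epididymis, the duct in which sperm mature, of CX3CR1 EGFP +/- mice aged 12 weeks. EGFP in these mice is driven by the gene for CX3CR1, the fractalkine receptor, and the labels call the sorted cells mononuclear phagocytes. There were 3 caput/corpus libraries (the middle regions), 4 cauda libraries (the last region, where sperm are stored) and 4 libraries from the initial segments (IS, the first region). Each library was made from 4 epididymides, every group carried the same reporter, and the labels do not say which animals a library came from. P-values therefore measure the spread between these libraries, which may be technical.

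Mast cells and basophils are granulocytes that carry the high-affinity receptor for IgE, and they release histamine and other stored mediators when antigen crosslinks it. The receptor is built from an alpha chain that binds IgE (Fcer1a), a beta chain that amplifies the signal (Ms4a2) and a gamma chain (Fcer1g) that many other Fc receptors of myeloid cells also use. Mast cells complete their maturation in tissues under Kit signalling, whereas basophils circulate and have little Kit; the transcription factor GATA2 is needed for both.

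All 9 genes had their highest mean level in the cauda, an intermediate mean in the caput/corpus and their lowest mean in the IS. Every caput/corpus library and every cauda library lay above every IS library for each of the 9 genes. Over all 15116 genes tested, 7.51% had every caput/corpus library above every IS library, and 7.95% had every cauda library above every IS library. Because the genes were chosen with these differences in view, the differences are given as a description. In sorted bulk samples, fewer cells of a type and less RNA per cell cannot be told apart.

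The libraries held between 16873180 and 31737132 reads on genes. Cauda replicate 1 stood apart, with 13434 genes detected by at least 1 read against 17053 to 18837 in the other libraries, so values are also given without it where it matters. For 3 of the 11 samples the deposited count file and the expression column named for the sample held different reads: the file under caput/corpus replicate 1 equals the column IS replicate 2, the file under cauda replicate 1 equals the column caput/corpus replicate 1, and the file under IS replicate 2 equals no column. Values here follow the named columns; the other 8 samples have no such conflict. Levels are in RPKM, read counts divided by the length of the gene and the size of the library, a scale on which genes can be compared with each other.

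Promoter sequence is shown for the IgE receptor chains and for Mrgprb2, because these are the 3 of the 9 genes whose start region holds the motif bound by GATA factors such as GATA2, itself among the 9. Each window is 300 bases long (250 before and 50 after the annotated start), taken from RefSeq on build GRCm38.p6 and written 5′ to 3′ in the direction of the gene. Capitals mark matches on either strand to AGATAA, whose reverse complement reads TTATCT, or to TGATAA, whose reverse complement reads TTATCA. In Fcer1a they also mark CACATG, the reverse complement of the E-box CATGTG that factors such as MITF bind. Fcer1a lies at chr1:173227180-173227479 on the minus strand, Ms4a2 at chr19:11623670-11623969 on the minus strand and Mrgprb2 at chr7:48558037-48558336 on the minus strand.
Fcer1a: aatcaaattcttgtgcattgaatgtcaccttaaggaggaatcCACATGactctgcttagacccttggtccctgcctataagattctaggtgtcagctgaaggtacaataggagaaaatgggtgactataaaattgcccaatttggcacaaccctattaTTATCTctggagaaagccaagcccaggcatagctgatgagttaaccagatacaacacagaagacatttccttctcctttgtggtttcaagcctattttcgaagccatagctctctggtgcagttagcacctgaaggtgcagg
Ms4a2: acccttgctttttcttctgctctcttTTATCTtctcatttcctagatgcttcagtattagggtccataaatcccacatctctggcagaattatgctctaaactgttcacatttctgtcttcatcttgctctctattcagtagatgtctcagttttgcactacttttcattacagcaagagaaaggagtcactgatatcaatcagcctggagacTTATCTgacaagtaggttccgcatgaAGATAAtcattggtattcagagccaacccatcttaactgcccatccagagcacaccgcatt
Mrgprb2: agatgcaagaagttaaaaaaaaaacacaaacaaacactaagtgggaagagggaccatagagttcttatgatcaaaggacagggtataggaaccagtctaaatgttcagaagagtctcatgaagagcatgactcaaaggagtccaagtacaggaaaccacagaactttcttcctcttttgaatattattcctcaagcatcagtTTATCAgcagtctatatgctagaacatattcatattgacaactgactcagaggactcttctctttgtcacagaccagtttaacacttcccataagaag

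Ms4a2 held 3 matches to AGATAA on both strands together, Fcer1a held 1 and Mrgprb2 held 1 match to TGATAA. The 9 genes have 13 annotated windows, of which 3 (23.1%) held AGATAA or TGATAA, against 18.6% of 32851 mouse promoter windows of the same length. At least 3 matches to AGATAA, as in Ms4a2, were found in 35 windows, or 0.107%. An E-box (CACGTG or CATGTG) was found in 2 of the 13 windows (15.4%), those of Fcer1a and Cyp11a1, against 20.4% of all windows. The share of windows with either motif among the 9 genes was thus near that of all promoters, and a match is a description of the letters only.

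Fcer1a (ENSMUSG00000005339), the IgE-binding alpha chain, was the most abundant of the 9 genes in the caput/corpus and the cauda. It was measured at 24.2, 34.9 and 20.6 RPKM in the 3 caput/corpus libraries, at 32.6, 96.6, 29.8 and 27.6 RPKM in the 4 cauda libraries, and at 2.09, 0.371, 0.476 and 1.52 RPKM in the 4 IS libraries. Cauda replicate 2 was far above every other library, and the remaining cauda libraries lay within the caput/corpus range. On the log2 scale the fitted difference was 4.69 ± 0.65 for caput/corpus versus IS, 5.30 ± 0.65 for cauda versus IS and -0.61 ± 0.60 for caput/corpus versus cauda (edgeR estimate ± SE, 11 libraries).

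Ms4a2 (ENSMUSG00000024680), the beta chain, was present at a lower level than the alpha chain in all caput/corpus and cauda libraries. It was measured at 2.42, 1.56 and 1.81 RPKM in caput/corpus libraries, at 10.7, 13.6, 3.48 and 2.86 RPKM in cauda libraries, and at 0.243, 0.191, 0.482 and 0.0128 RPKM in IS libraries. Every cauda library lay above every caput/corpus library, and cauda replicates 1 and 2 were the highest of all. The log2 difference was 3.16 ± 0.78 for caput/corpus versus IS, 4.81 ± 0.81 for cauda versus IS and -1.65 ± 0.79 for caput/corpus versus cauda.

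The balance of the 2 chains differed between libraries. The ratio of Ms4a2 to Fcer1a in RPKM was 0.0447 to 0.1002 in the caput/corpus libraries and 0.1037 to 0.329 in the cauda libraries. The highest value came from cauda replicate 1, the library that stands apart, and the other cauda libraries were at 0.1037 to 0.141. The ranges of the caput/corpus and cauda libraries nearly touched, and how often other pairs of genes part in this way was not tested. Over the 4 IS libraries the ratio spread from 0.00843 to 1.01.

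Fcer1g, the gamma chain that is not one of the 9, was high in all 3 regions. Its mean level was 1814 ± 338 RPKM in caput/corpus libraries, 1743 ± 239 RPKM in cauda libraries and 1905 ± 246 RPKM in IS libraries (SD, n = 3, 4 and 4). The log2 difference was -0.02 ± 0.11 for caput/corpus versus IS and -0.13 ± 0.10 for cauda versus IS, with adjusted p = 0.983 and 0.469 (edgeR quasi-likelihood test, Benjamini-Hochberg over the genes tested). Relative to Fcer1a, Fcer1g was 53.0 to 88.1 times as high in caput/corpus libraries, 19.9 to 60.1 times in cauda libraries and 1064 to 5239 times in IS libraries.

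**Figure D1:**
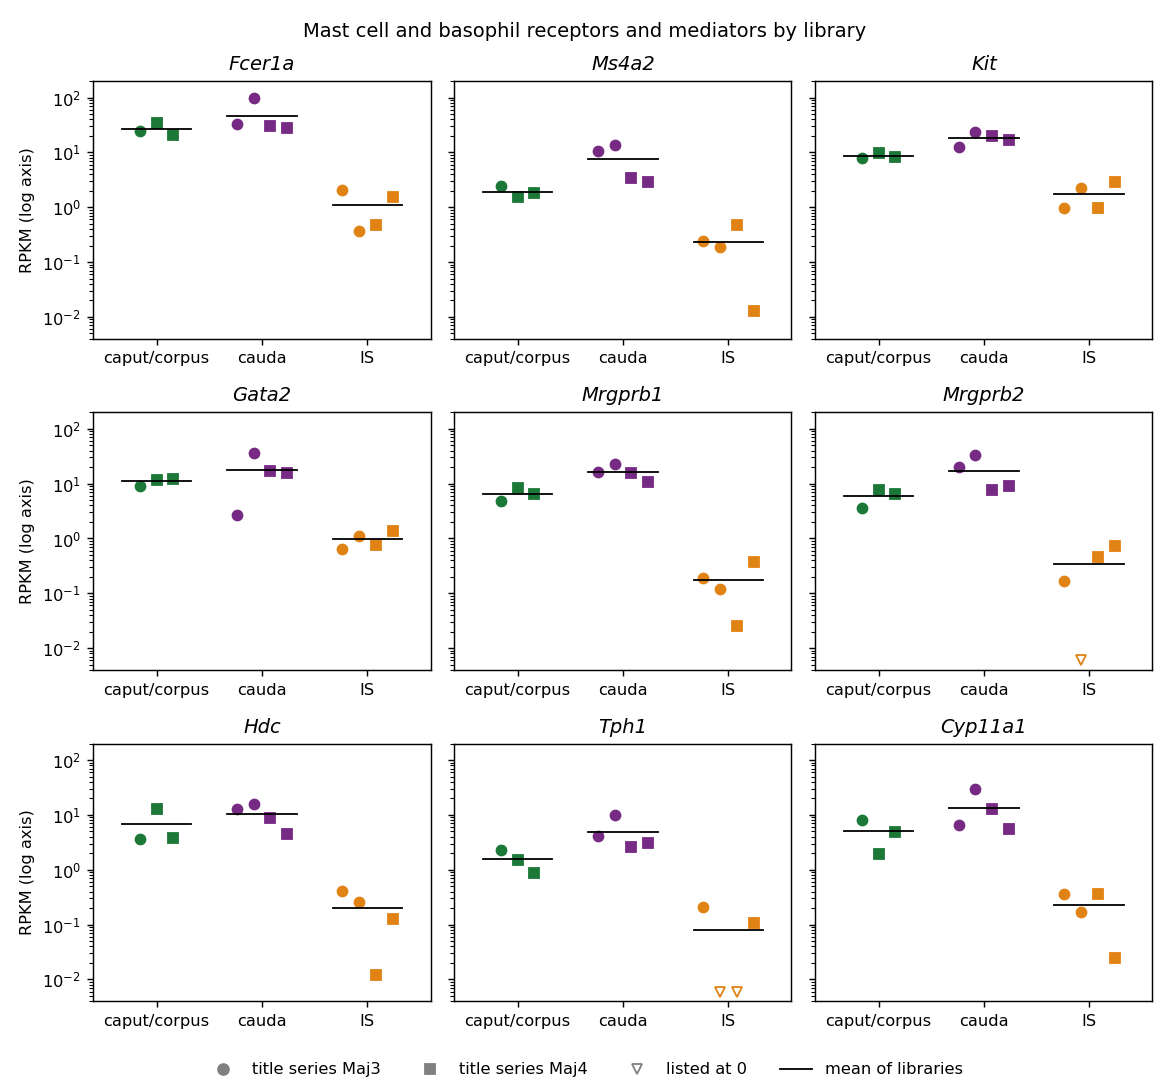
RPKM on a log axis of each of the 9 genes in every library (caput/corpus, cauda and IS from left to right), with circles for title series Maj3, squares for Maj4, open triangles at the axis for values of 0 and a line for the mean of a region. All 3 caput/corpus and all 4 cauda points lie above all 4 IS points in every panel, and cauda replicate 2 is the highest point of each panel.

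Kit (ENSMUSG00000005672), the receptor for stem cell factor, showed the smallest differences of the 9 genes from the IS. Its level was 7.76, 9.57 and 8.07 RPKM in caput/corpus libraries, 12.6, 23.9, 20.1 and 16.5 RPKM in cauda libraries, and 0.968, 2.23, 0.958 and 2.86 RPKM in IS libraries. The 3 caput/corpus libraries were close together, and all cauda libraries exceeded them. The log2 difference was 2.25 ± 0.38 for caput/corpus versus IS, 3.39 ± 0.38 for cauda versus IS and -1.14 ± 0.39 for caput/corpus versus cauda.

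Gata2 (ENSMUSG00000015053) encodes the zinc-finger transcription factor of the group. Its level was 9.05, 11.8 and 12.0 RPKM in caput/corpus libraries, 2.70, 36.2, 17.0 and 15.3 RPKM in cauda libraries, and 0.637, 1.10, 0.775 and 1.38 RPKM in IS libraries. The low cauda value came from replicate 1, the library that stands apart; the other 3 cauda libraries lay above all caput/corpus libraries and averaged 22.9 ± 11.6 RPKM (SD, n = 3). In that replicate the ratio of Gata2 to Fcer1a was 0.0827, whereas it was between 0.337 and 0.585 in the other 6 caput/corpus and cauda libraries.

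The log2 difference of Gata2 was 3.48 ± 0.66 for caput/corpus versus IS, 4.20 ± 0.66 for cauda versus IS and -0.73 ± 0.64 for caput/corpus versus cauda. Without cauda replicate 1 the values were 3.53 ± 0.35, 4.55 ± 0.36 and -1.02 ± 0.34 in the same order of comparisons, with a standard error about as small as that of Kit. Without cauda replicate 2 the last difference was 0.11, of the opposite sign.

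Mrgprb1 and Mrgprb2 are neighbours in a family of G protein-coupled receptors, and MRGPRB2 is the receptor through which basic peptides and several drugs trigger mouse connective tissue mast cells without IgE. Reads that align to more than 1 place are left out of such counts. The levels of these related genes, and their sum, may therefore be too low, and the split between them is uncertain. Mrgprb1 (ENSMUSG00000070547) was at 4.81, 8.31 and 6.52 RPKM in caput/corpus libraries, at 16.5, 22.7, 15.4 and 10.5 RPKM in cauda libraries, and at 0.187, 0.118, 0.0258 and 0.371 RPKM in IS libraries. The 3 regions did not overlap for this gene. Its log2 difference was 5.19 ± 0.57 for caput/corpus versus IS, 6.51 ± 0.59 for cauda versus IS and -1.32 ± 0.52 for caput/corpus versus cauda, and the cauda versus IS value was the largest among the 9 genes.

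Mrgprb2 (ENSMUSG00000050425) was at 3.58, 7.80 and 6.59 RPKM in caput/corpus libraries, at 20.1, 32.7, 7.57 and 8.93 RPKM in cauda libraries, and at 0.171, 0, 0.469 and 0.728 RPKM in IS libraries. Cauda replicates 1 and 2 were clearly higher than the rest, and cauda replicate 3 fell just inside the caput/corpus range. Its log2 difference was 4.15 ± 0.93 for caput/corpus versus IS, 5.91 ± 1.03 for cauda versus IS and -1.76 ± 0.98 for caput/corpus versus cauda.

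The ratio of Mrgprb2 to Mrgprb1 in RPKM was 0.745 to 1.01 in caput/corpus libraries, 0.492 to 1.44 in cauda libraries and 0 to 18.2 in IS libraries. As the split of reads between these genes is uncertain, which receptor had the higher level cannot be read from the ratio. Of 17 other members of the Mrgpr family, 2 had enough reads to be tested, Mrgpra4 and Mrgpre, and neither passed the test in any comparison. All 17 together summed to 0.810 to 3.05 RPKM in caput/corpus libraries, 0 to 1.98 RPKM in cauda libraries and 0.787 to 1.75 RPKM in IS libraries.

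Hdc (ENSMUSG00000027360), histidine decarboxylase, makes histamine. It was at 3.58, 12.9 and 3.74 RPKM in caput/corpus libraries, at 12.6, 16.1, 8.72 and 4.52 RPKM in cauda libraries, and at 0.411, 0.261, 0.0120 and 0.125 RPKM in IS libraries. Caput/corpus replicate 2 reached the level of the higher cauda libraries, so these regions overlapped. The log2 difference was 5.54 ± 0.83 for caput/corpus versus IS, 5.74 ± 0.77 for cauda versus IS and -0.20 ± 0.72 for caput/corpus versus cauda, the last changing sign to 0.53 without caput/corpus replicate 1, 0.05 without caput/corpus replicate 3 and 0.04 without cauda replicate 3.

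Tph1 (ENSMUSG00000040046), tryptophan hydroxylase 1, carries out the rate-limiting step of serotonin synthesis outside the brain. It was at 2.32, 1.53 and 0.875 RPKM in caput/corpus libraries, at 4.08, 9.97, 2.64 and 3.11 RPKM in cauda libraries, and at 0.205, 0, 0 and 0.108 RPKM in IS libraries. It had the lowest mean of the 9 genes in each region, and the 3 regions did not overlap. The log2 difference was 4.46 ± 1.02 for caput/corpus versus IS, 5.87 ± 1.05 for cauda versus IS and -1.41 ± 0.94 for caput/corpus versus cauda.

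Cyp11a1 (ENSMUSG00000032323), the cholesterol side-chain cleavage enzyme, starts steroid hormone synthesis and is best known from the adrenal gland and the gonads. It was at 8.22, 1.93 and 4.85 RPKM in caput/corpus libraries, at 6.56, 29.7, 12.6 and 5.42 RPKM in cauda libraries, and at 0.362, 0.172, 0.367 and 0.0244 RPKM in IS libraries. Cauda replicate 2 was again the highest, while caput/corpus replicate 1 lay above cauda replicates 1 and 4. The log2 difference was 4.51 ± 0.79 for caput/corpus versus IS, 5.83 ± 0.81 for cauda versus IS and -1.32 ± 0.72 for caput/corpus versus cauda.

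The genes that act with Cyp11a1 were mostly flat or absent. Of 9 other genes of steroid synthesis, 4 were tested and 1, the mitochondrial cholesterol-binding protein gene Tspo, was called higher in both comparisons with the IS. Tspo averaged 165 ± 21.9 RPKM in caput/corpus, 178 ± 36.2 RPKM in cauda and 97.7 ± 14.5 RPKM in IS libraries (SD, n = 3, 4 and 4), with a log2 difference of 0.80 ± 0.17 and 0.87 ± 0.16 (adjusted p = 0.0313 and 0.00437, edgeR). The caput/corpus call was lost in 5 of the 11 fits that each left out 1 library (leaving out IS 1, 3 or 4, or caput/corpus 2 or 3). Hsd3b1, Hsd3b6 and Nr5a1, which mark steroid-producing cells of the gonads and the adrenal gland, had no read in any of the 11 libraries. Star, the cholesterol transporter of steroid-producing cells, averaged 0.550, 1.08 and 0.703 RPKM in caput/corpus, cauda and IS libraries and did not pass the test (adjusted p = 0.952 for caput/corpus versus IS and 0.732 for cauda versus IS, edgeR).

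**Figure D2:**
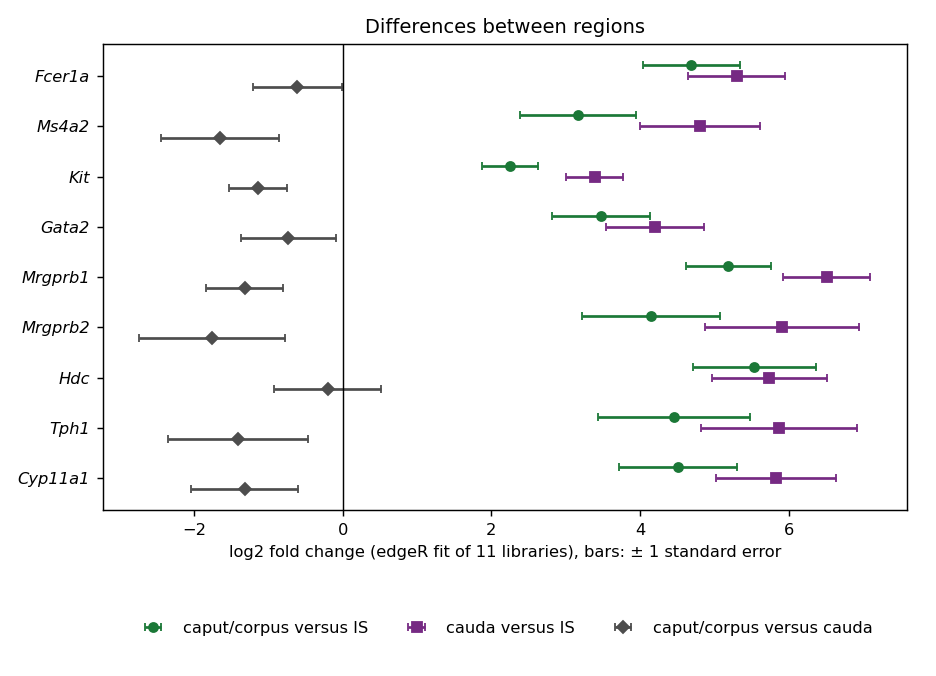
Log2 fold change of each of the 9 genes in the 3 comparisons, from 1 edgeR fit of 11 libraries, with bars of 1 standard error. All points for caput/corpus versus IS (2.25 to 5.54) and cauda versus IS (3.39 to 6.51) lie right of 0, and all points for caput/corpus versus cauda (-1.76 to -0.20) lie left of it.

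Across the 9 genes the median log2 difference was 4.46 for caput/corpus versus IS, 5.74 for cauda versus IS and -1.32 for caput/corpus versus cauda, beside -0.02, -0.05 and 0.02 over all genes tested. At an adjusted p under 0.05 (edgeR quasi-likelihood test), 8 of the 9 genes were called higher in caput/corpus than in IS, where 2.98% of all genes tested were called higher and 3.78% were called in either direction. Ms4a2 was the exception. All 9 were called higher in cauda than in IS, where 9.06% of all genes were called higher and 16.5% in either direction. These counts come from the contrasts on which the genes were chosen, and nothing is read from them.

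The caput/corpus count was 4 to 9 of 9 when single libraries were left out. It was 4 without caput/corpus replicate 1, 5 without caput/corpus replicate 2 or 3 or IS replicate 1, and 9 without cauda replicate 1. Fcer1a, Kit, Mrgprb1 and Hdc were called in all 11 such fits, whereas Tph1 and Ms4a2 were called in 2 of them. The cauda count was 9 in all 11 fits. These fits use the contrasts on which the genes were chosen, so their counts are a description as well.

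No gene of the 9 was called between caput/corpus and cauda, where 0.615% of all genes tested were called, 0.582% higher and 0.0331% lower in caput/corpus (edgeR); 2 of the 9 had an unadjusted p under 0.05, and DESeq2 and limma called 0 as well. Each fitted difference was below 0, and for Ms4a2, Kit, Mrgprb1 and Tph1 every caput/corpus library lay below every cauda library, as for 3.04% of all genes tested. For the remaining 5 genes the caput/corpus and cauda levels, neighbours in the order of means, overlapped.

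Both series of sample titles, Maj3 and Maj4, contained all 3 regions, with a single caput/corpus library in Maj3. The 9 differences were 2.31 to 5.36 in Maj3 and 2.20 to 6.82 in Maj4 for caput/corpus versus IS. They were 3.47 to 8.17 in Maj3 and 3.25 to 6.47 in Maj4 for cauda versus IS, all above 0 in both series. For caput/corpus versus cauda they were -2.80 to -1.03 in Maj3 and -1.40 to 0.35 in Maj4, where Hdc was the gene above 0.

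In the 8 samples without a file conflict, the differences were 2.42 to 6.34 for caput/corpus versus IS and 3.69 to 6.29 for cauda versus IS, with 8 and 9 of the 9 genes called. With the counts as filed under each sample, the differences were 1.05 to 2.89 and 2.09 to 4.53, and 0 of the 9 genes were called in each comparison (edgeR). At an unadjusted p under 0.05 those counts gave 0 of 9 for caput/corpus versus IS and 8 of 9 for cauda versus IS. All 9 differences from the IS kept a value above 0 with each source of reads.

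The 9 genes together summed to 66.0, 90.3 and 65.1 RPKM in caput/corpus libraries, to 118.6, 281.5, 117.4 and 94.8 RPKM in cauda libraries, and to 5.27, 4.44, 3.56 and 7.13 RPKM in IS libraries. The sum was highest in cauda replicate 2, in which Cpa3, a protease of mast cell and basophil granules, was also highest at 641 RPKM. Set against Cpa3, the sum was 42.6%, 59.5% and 56.7% of the Cpa3 level in caput/corpus libraries and 61.7%, 43.9%, 67.4% and 64.6% in cauda libraries. Between caput/corpus and cauda these shares overlapped. The sums did not, but the highest caput/corpus sum (90.3 RPKM) lay close to the lowest cauda sum (94.8 RPKM), and nothing is read from this. In IS libraries, where both quantities were low, the shares were 34.0%, 131.9%, 51.1% and 147.2%.

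**Figure D3:**
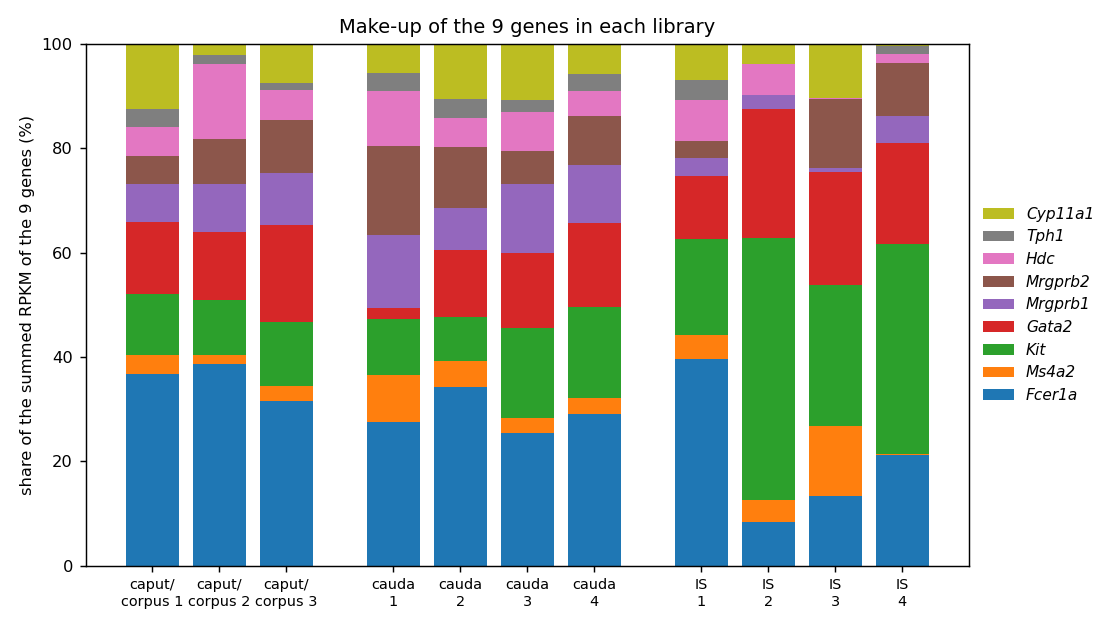
Share of the summed RPKM of the 9 genes taken by each gene (%, stacked bars from 0 to 100) in the 3 caput/corpus, 4 cauda and 4 IS libraries. Kit takes 8.49% to 17.4% in caput/corpus and cauda libraries and 18.4% to 50.2% in IS libraries, and Gata2 takes 2.28% in cauda replicate 1.

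Kit took 10.6% to 12.4% of the sum in caput/corpus libraries, 8.49% to 17.4% in cauda libraries and 18.4% to 50.2% in IS libraries, so its share was highest in the region with the lowest sums. Within the IS the share did not follow the sum, being 26.9% in replicate 3, where the sum was lowest, and 50.2% in replicate 2. Fcer1a took 31.6% to 38.6% of the sum in caput/corpus libraries and 25.4% to 34.3% in cauda libraries. Hdc reached 14.3% in caput/corpus replicate 2. Gata2 took 2.28% in cauda replicate 1.

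Over the 11 libraries the 36 pairs among the 9 genes correlated with Pearson's r between 0.74 and 0.98 on log2(CPM + 1), CPM being read counts scaled by library size. The 11 points share the separation of the IS from the other regions, by which the genes were chosen. Over the 7 caput/corpus and cauda libraries, r was 0.24 to 0.89 for the 28 pairs without Gata2 and -0.02 to 0.51 for the 8 pairs with it. These values are a description over few libraries.

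The 10 other genes whose pattern over the 11 libraries was most like the mean of the 9 (Pearson's r, standardised values) were Gm11428 at 0.987, Cma1 and Gm15448 at 0.984, St3gal5 at 0.983, Crip1 at 0.980, Emb and Adam8 at 0.979, and Gm3788, Cpa3 and Tpsb2 at 0.977. Cma1, Cpa3 and Tpsb2 encode mast cell granule proteases. The IS means of the other 7 genes ran from 0.782 RPKM for Gm15448 to 551 RPKM for Crip1. Crip1 averaged 1584 ± 172 RPKM in caput/corpus, 2651 ± 369 RPKM in cauda and 551 ± 64.9 RPKM in IS libraries (SD, n = 3, 4 and 4), and Adam8, a membrane protease, averaged 21.4 ± 2.48, 38.9 ± 8.76 and 5.83 ± 1.32 RPKM.

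Mast cell proteases rose with the 9 genes. Like the other gene lists below, this list was chosen with earlier results of these data known. Its calls are therefore a description and give no independent support. Of 9 protease genes, 7 were tested; 6 of them passed the test upwards in caput/corpus versus IS, and 6 did so in cauda versus IS, with a median log2 difference of 4.27 and 4.81 over the tested genes. Cpa3 averaged 140 ± 22.3 RPKM in caput/corpus, 289 ± 236 RPKM in cauda and 7.67 ± 5.42 RPKM in IS libraries (SD, n = 3, 4 and 4). Its log2 difference was 4.41 ± 0.55 for caput/corpus versus IS and 5.14 ± 0.55 for cauda versus IS (adjusted p = 0.00326 and 0.000266, edgeR). Cauda replicate 2 carried much of the spread of the cauda libraries.

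The connective tissue mast cell proteases Cma1, Mcpt4 and Tpsb2 followed the same order. Tpsb2, a tryptase, was the most abundant at 272 ± 61.3 RPKM in caput/corpus, 587 ± 411 RPKM in cauda and 20.2 ± 14.9 RPKM in IS libraries, with a log2 difference of 4.00 ± 0.49 and 4.81 ± 0.49 from the IS (adjusted p = 0.00321 and 0.000199, edgeR). Mcpt4, a chymase, averaged 95.9 ± 22.3 RPKM in caput/corpus, 197 ± 148 RPKM in cauda and 5.12 ± 3.32 RPKM in IS libraries, with a log2 difference of 4.31 ± 0.64 and 5.22 ± 0.65 (adjusted p = 0.00638 and 0.000536). Cpa3, Cma1, Mcpt4 and Tpsb2 were called in both comparisons in all 11 fits that each left out 1 library.

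Tpsab1 and Ctsg were called in cauda versus IS in all 11 fits, but in caput/corpus versus IS in 3 and 2 of them, with an adjusted p of up to 0.113 and 0.136. The caput/corpus call of Tpsab1 held without IS replicate 1, cauda replicate 1 or cauda replicate 3, and that of Ctsg held without cauda replicate 1 or 2. Ctsg, cathepsin G, had 235 reads in caput/corpus, 751 in cauda and 1 in IS libraries, which scaled by library size is 323 times the IS level in caput/corpus (95% interval 57.4 to 12810) and 707 times in cauda (127 to 27980). Without cauda replicate 2, which held 578 of the 751 cauda reads, the cauda ratio was 238. Mcpt1 and Mcpt2, the chymases of mucosal mast cells, averaged 0 and 0.0126 RPKM in caput/corpus, 0.0107 and 0.0149 RPKM in cauda, and 0 RPKM in IS libraries.

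Basophil genes were also called. Of 7 genes, 6 were tested, of which 3 passed the test upwards in caput/corpus versus IS and 5 in cauda versus IS. Prss34, a basophil protease that mast cells can also express, was at 8.45, 3.02 and 6.51 RPKM in caput/corpus libraries, at 84.4, 40.9, 22.4 and 13.9 RPKM in cauda libraries, and at 0.469, 0.344, 0 and 0 RPKM in IS libraries. It rose by 5.59 ± 0.71 in caput/corpus versus IS and by 7.76 ± 0.72 in cauda versus IS on the log2 scale (adjusted p = 0.00342 and 0.000132, edgeR), in all 11 leave-one-out fits. Its cauda libraries lay above its caput/corpus libraries, as for 3.04% of all genes tested. The difference of -2.17 ± 0.6 for caput/corpus versus cauda did not pass the test (adjusted p = 0.178, edgeR).

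Mcpt8, the protease most specific to mouse basophils, had its highest mean in the caput/corpus. It was at 5.29, 6.57 and 5.64 RPKM in caput/corpus libraries, at 0, 1.29, 4.75 and 3.76 RPKM in cauda libraries, and at 0.0835, 0, 0 and 0 RPKM in IS libraries. Every caput/corpus library lay above every cauda library, as for 6.52% of all genes tested. The cauda library with the highest Prss34, replicate 1, had no Mcpt8 read. It is the library that stands apart, with 13434 genes detected, so nothing is read from this value. The log2 difference between caput/corpus and cauda was 1.44 ± 1.27 and did not pass the test (adjusted p = 0.733, edgeR).

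With 2 Mcpt8 reads in the IS, pooled reads scaled by library size were 232 times the IS level in caput/corpus (95% counting interval 63.8 to 1926) and 82.4 times in cauda (22.5 to 686). The edgeR calls of Mcpt8 (adjusted p = 0.0376 and 0.0312) were lost in 10 and 9 of the 11 leave-one-out fits. They held without cauda replicate 1 in both comparisons, and without IS replicate 1 in cauda versus IS. Il3ra, a chain of the interleukin-3 receptor, was called in cauda versus IS in all 11 fits (log2 difference 1.31 ± 0.19, adjusted p = 0.00131), and in caput/corpus versus IS (1.00 ± 0.21, adjusted p = 0.0258) in the 4 fits that left out a cauda library.

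The remaining basophil calls were in cauda versus IS. Cd200r3 had a log2 difference of 3.96 ± 0.96 (adjusted p = 0.0193), lost without cauda replicate 2 (0.0559). The cytokine gene Il4 averaged 2.25 ± 0.885 RPKM in caput/corpus, 2.56 ± 1.45 RPKM in cauda and 0.242 ± 0.173 RPKM in IS libraries, and its cauda call (adjusted p = 0.0285, edgeR) was lost in 6 of the 11 fits, those leaving out IS 1, 3 or 4, or cauda 2, 3 or 4.

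**Figure D4:**
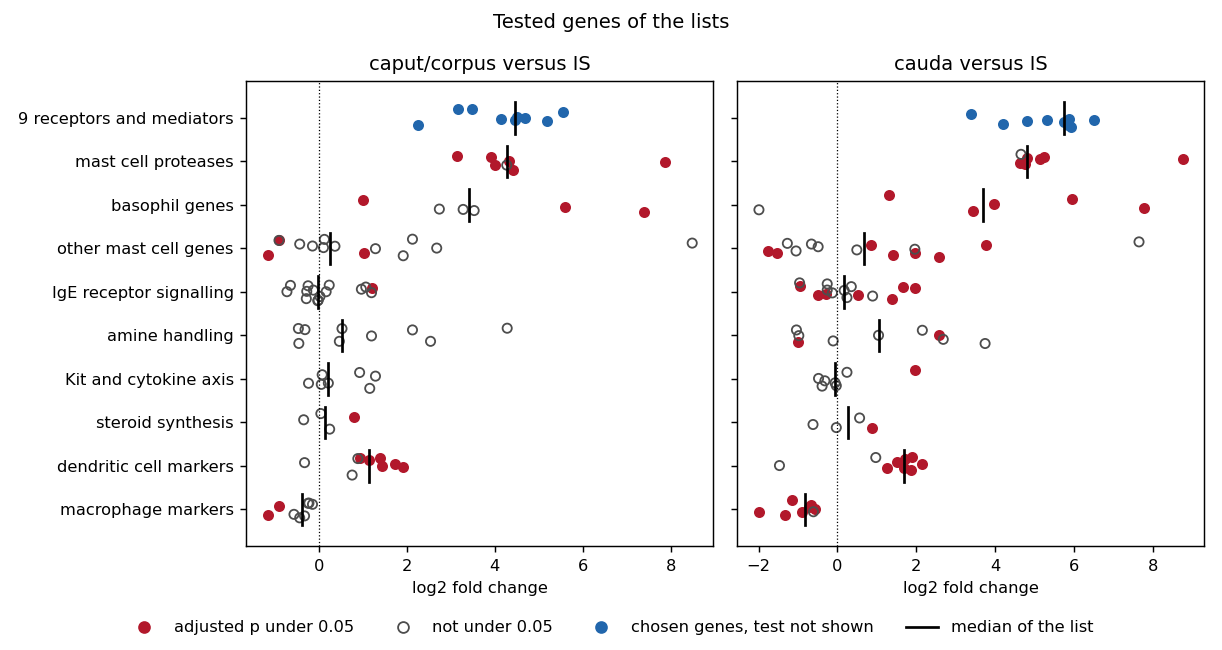
Log2 fold change of each tested gene, grouped by list, for caput/corpus versus IS (left panel) and cauda versus IS (right panel), with filled red circles at an adjusted p under 0.05, open circles otherwise, blue circles for the 9 chosen genes and a bar at each median. The medians of the proteases (4.27 and 4.81) and the basophil genes (3.41 and 3.70) lie far right of 0, whereas the signalling genes (-0.01 and 0.17) lie near it.

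Signalling genes downstream of the IgE receptor were called in both directions. All 15 were tested, and 1 was called higher in caput/corpus than in IS. In cauda versus IS, 4 were called higher and 3 lower, where 7.40% of all genes were called lower. The median log2 difference was -0.01 and 0.17. Rasgrp4, a Ras activator of mast cells and other myeloid cells, averaged 11.0 ± 3.19 RPKM in caput/corpus, 17.5 ± 4.13 RPKM in cauda and 4.58 ± 1.13 RPKM in IS libraries, and rose by 1.96 ± 0.24 in cauda versus IS on the log2 scale (adjusted p = 0.000523, edgeR). Its caput/corpus call (1.21 ± 0.25, adjusted p = 0.0286) was lost on leaving out IS 1, 2 or 3, or caput/corpus 2 or 3.

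The kinase Fyn (1.38 ± 0.28) and the adaptors Grap2 (1.67 ± 0.26) and Lat2 (0.51 ± 0.09) were also higher in cauda than in IS in all 11 leave-one-out fits (adjusted p = 0.00706, 0.00191 and 0.00293, edgeR). Lyn, the kinase that first phosphorylates the receptor, Lcp2 and Gab2 were lower by -0.29 ± 0.08, -0.49 ± 0.13 and -0.96 ± 0.27 (adjusted p = 0.0258, 0.0255 and 0.0369), and these calls were lost in 5, 6 and 8 of the 11 fits. Lyn lost its call on leaving out IS 1, 2 or 3, or cauda 3 or 4, Lcp2 on leaving out IS 1, 2 or 4, or cauda 2, 3 or 4, and Gab2 on leaving out any 1 IS or cauda library. Syk averaged 29.3 RPKM in caput/corpus, 31.6 RPKM in cauda and 27.2 RPKM in IS libraries and did not pass the test (adjusted p = 0.994 and 0.218).

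Genes of lipid mediator synthesis were called in both directions. Alox5ap, the partner of 5-lipoxygenase in leukotriene synthesis, averaged 444 ± 87.2 RPKM in caput/corpus, 580 ± 52.1 RPKM in cauda and 221 ± 17.5 RPKM in IS libraries and was higher in both comparisons in all 11 fits (1.02 ± 0.14 and 1.40 ± 0.13, adjusted p = 0.00496 and 0.000155, edgeR). Alox5 itself was higher in cauda than in IS (0.86 ± 0.18, adjusted p = 0.00914), while its difference of 0.11 ± 0.20 in caput/corpus versus IS did not pass the test (adjusted p = 0.923). Ltc4s, which makes leukotriene C4, averaged 33.4, 18.8 and 44.9 RPKM in caput/corpus, cauda and IS libraries and did not pass the test (-0.43 and -1.27, adjusted p = 0.83 and 0.0899). The prostaglandin genes Ptgs1 and Hpgds, which macrophages also express, were lower in cauda than in IS by -1.75 ± 0.22 and -1.52 ± 0.17 (adjusted p = 0.000594 and 0.00032). Both were also lower in caput/corpus than in IS (-1.15 ± 0.24 and -0.90 ± 0.18, adjusted p = 0.0272 and 0.0249), calls that were lost on leaving out IS 1, 3 or 4, or caput/corpus 2 or 3.

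Of 15 further mast cell genes, to which these belong, 14 were tested. In caput/corpus versus IS, 1 was called higher and 2 lower, where 0.794% of all genes were called lower. In cauda versus IS, 5 were called higher and 2 lower. Il1rl1, the interleukin-33 receptor, averaged 9.10 ± 4.06 RPKM in caput/corpus, 11.8 ± 3.58 RPKM in cauda and 3.51 ± 2.92 RPKM in IS libraries and rose by 1.96 ± 0.33 in cauda versus IS (adjusted p = 0.00278, edgeR). Rab27b, a GTPase of secretory granules, averaged 0.609 ± 0.115, 1.54 ± 0.968 and 0.118 ± 0.0901 RPKM in caput/corpus, cauda and IS libraries and rose by 3.76 ± 0.80 in cauda versus IS (adjusted p = 0.01). Mitf, a transcription factor of mast cells and macrophages, averaged 5.04, 3.49 and 4.74 RPKM in those regions and did not pass the test (adjusted p = 0.967 and 0.538). In cauda replicate 1 Mitf was at 0.414 RPKM, against 3.36 to 5.11 RPKM in the other cauda libraries.

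Genes that transport, degrade or sense histamine and serotonin were mostly not called. Of 14, 9 were tested. None was called in caput/corpus versus IS (edgeR), and 1 was called higher and 1 lower in cauda than in IS. Slc18a2, the vesicular monoamine transporter, averaged 4.38 ± 1.84 RPKM in caput/corpus, 5.82 ± 4.34 RPKM in cauda and 0.970 ± 0.225 RPKM in IS libraries (log2 difference 2.58 ± 0.69 in cauda versus IS, adjusted p = 0.029). In cauda replicate 1 it was at 0.567 RPKM, below every IS library, against 5.46 to 11.2 RPKM in the other cauda libraries. Hnmt, which inactivates histamine, averaged 4.78 ± 1.70, 3.71 ± 1.51 and 7.27 ± 2.25 RPKM (-1.0 ± 0.27, adjusted p = 0.0309). Both calls were lost without any 1 IS library or without cauda replicate 2, 3 or 4. The 2 other enzymes of serotonin synthesis on the list were at or near 0, with Tph2 without a read in any library and Ddc, which makes serotonin from the product of Tph1, at means of 0.0111, 0.0427 and 0.0216 RPKM in caput/corpus, cauda and IS libraries.

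The ligand of Kit, Kitl, averaged 3.38 ± 0.711 RPKM in caput/corpus, 2.85 ± 1.96 RPKM in cauda and 3.55 ± 0.419 RPKM in IS libraries, and did not pass the test (log2 difference -0.23 ± 0.68 and -0.48 ± 0.63, adjusted p = 0.959 and 0.666, edgeR). Its cauda mean was lowered by cauda replicate 1, at 0.178 RPKM against 2.79 to 4.76 RPKM in the other cauda libraries. Of 10 genes of the Kit and cytokine axis, 7 were tested. None was called in caput/corpus versus IS and 1, Il1rl1, was called higher in cauda than in IS.

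Markers of other cell types differed between the regions beside the 9 genes. Of 9 dendritic cell markers, all tested, 6 were called higher in caput/corpus than in IS and 7 in cauda than in IS. Over all genes tested, 2.98% and 9.06% were called higher in these comparisons. The summed level of the dendritic markers was 855 to 1178 RPKM in caput/corpus, 779 to 1695 RPKM in cauda and 187 to 389 RPKM in IS libraries. Of 8 macrophage markers, all tested, 2 were called lower in caput/corpus than in IS and 7 in cauda than in IS. Over all genes tested, 0.794% and 7.40% were called lower in these comparisons. The macrophage markers summed to 5143 to 9243, 4206 to 6119 and 7166 to 10546 RPKM in caput/corpus, cauda and IS libraries. The 2 called in caput/corpus were Cx3cr1, the gene whose promoter drives EGFP, and Mertk. Cx3cr1 averaged 112 RPKM in caput/corpus, 83.6 RPKM in cauda and 212 RPKM in IS libraries. Its caput/corpus call (adjusted p = 0.0369, edgeR) was lost on leaving out IS 1, 3 or 4, caput/corpus 2 or 3, or cauda 4, and that of Mertk (adjusted p = 0.044) on leaving out any 1 IS or caput/corpus library or cauda 2. In cauda versus IS, Adgre1 lost its call on leaving out IS 1 or 3, or cauda 2, whereas Cx3cr1, Csf1r, Mertk, Fcgr1 and C1qa kept theirs in all 11 fits. Of the dendritic calls in caput/corpus, that of Zbtb46 was lost on leaving out IS 1, 2 or 3, or caput/corpus 1 or 3, and that of Dpp4 on leaving out IS 1, 2 or 3 or any 1 caput/corpus library. The other dendritic calls held in all 11 fits. The part of these shifts in the levels of the 9 genes was not tested.

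Markers of other granulocytes were mostly low. Eosinophil peroxidase (Epx) and major basic protein (Prg2), the defining eosinophil genes, averaged 0 RPKM in caput/corpus and cauda libraries, and no eosinophil gene of 3 tested was called. The neutrophil genes S100a9 and Ly6g had no read in any library; of the 2 neutrophil genes tested, Mmp8 was higher and Csf3r lower in cauda than in IS (adjusted p = 0.0303 and 0.000632, edgeR), the Mmp8 call being lost on leaving out IS 1, 2 or 3, or cauda 2. Of 5 platelet markers, 1 was called higher in caput/corpus than in IS and 2 in cauda than in IS. Itga2b, an integrin chain, averaged 1.17 ± 0.642, 3.59 ± 1.16 and 0.176 ± 0.146 RPKM in caput/corpus, cauda and IS libraries. Pf4 averaged 463, 433 and 516 RPKM in the same order and did not pass the test. The Itga2b calls (adjusted p = 0.0171 and 0.000666, edgeR) held in 9 and 11 of the 11 leave-one-out fits, the first being lost without IS replicate 3 or 4. The second platelet gene called in cauda, Gp1ba, lost its call (adjusted p = 0.0257) on leaving out IS 1 or 3, or cauda 2 or 4.

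Epithelial genes were called in both directions. The summed level of 8 epithelial genes was 111 to 150 RPKM in caput/corpus, 1.79 to 7.14 RPKM in cauda and 366 to 840 RPKM in IS libraries. Of these genes, 2 were called higher and 2 lower in caput/corpus than in IS. In cauda versus IS, 1 was called higher and 6 lower. Lcn8 and Rnase10, at means of 416 and 139 RPKM, made up most of the IS sum. Wfdc13 was higher in both comparisons (adjusted p = 0.0108 and 0.018, edgeR), but the caput/corpus call was lost on leaving out IS 2 or 3 and the cauda call on leaving out IS 1, 2 or 3. The part of epithelial RNA in the levels of the 9 genes was not tested. The Leydig cell genes, which bear on Cyp11a1, summed to 1.34 to 1.58 RPKM in caput/corpus, 1.13 to 2.61 RPKM in cauda and 0.678 to 2.59 RPKM in IS libraries, and neither of the 2 tested was called.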

How the data were processed

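RNA from EGFP+ cells was extracted with a PicoRNA kit, made into libraries with the SMARTER v4 kit and sequenced on a HiSeq2500 instrument, per the labels' protocols. The submitters' processing notes name STAR, HTSeq, edgeR and build mm9, without versions. The deposited count files hold whole read counts per Ensembl gene, counted without strand per the file names; reads with several alignments made up 12.5% to 35.8% of those handled, reads outside genes 7.75% to 24.8% and ambiguous reads 1.74% to 2.12%. The authors' deposited RPKM table gives reads scaled by gene length and library size, in a column per sample.

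Multiplied by gene length, all 37583 values of all 11 RPKM columns were whole multiples of a single read within 0.001, so whole reads were recovered. Of the 11 recovered sets, 10 equal a count file, and that of cauda replicate 1 comes from the column alone. Replicates were numbered in accession order. The 9 genes and all gene lists were chosen with earlier results of these data known.

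These reads were tested with edgeR's quasi-likelihood method (version 4.0.16, R 4.3.3): 1 fit of 11 libraries, TMM, filterByExpr by region (15116 genes), title series as covariate, adjusted p by Benjamini-Hochberg, called under 0.05. All 9 chosen genes passed the filter. It was tested on simulated data. Log2 differences are edgeR estimates with the SE from the F statistic; levels are RPKM, mean ± SD over libraries. Where the IS held 1 to 3 reads, the exact 95% interval covers counting error only. Alternatives were other size factors, no filter, DESeq2 1.42.0, limma 3.58.1 on log2(RPKM + 1) or log2(RPKM + 0.1), no covariate, a replicate block, other read sources, single title series and each library left out. Named from each of 17 other lists were up to 6 called genes by smallest p, plus Fcer1g, Cpa3, Mcpt4, Tpsb2, Mcpt8 and Kitl; Syk, Star, Mitf, Ltc4s, Pf4, Mrgpra4, Mrgpre and genes near 0 were added after their values were seen. Promoters are RefSeq windows on GRCm38.p6; gene positions on mm9 were not used.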

Additional observations from a re-analysis of the deposited data

Results flagged for a closer look

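Fcer1a in cauda replicate 2, at 96.6 RPKM, lay further from the other 3 cauda libraries, relative to the range of the 4, than Dixon's 95% critical value allows. It was the only one of the 18 tested groups (9 genes in the cauda and in the IS) past that value, and chance passes about 1 in 20 such groups. Cauda replicate 2 also had the highest level of the other 8 genes and of Cpa3.

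The count file under IS replicate 2, with 30383072 reads on genes, equals no named column and entered none of the comparisons reported from the named columns. Its reads were 364 for Fcer1a, 107 for Ms4a2, 1205 for Kit, 470 for Gata2, 283 for Mrgprb1, 88 for Mrgprb2, 1493 for Hdc, 54 for Tph1 and 135 for Cyp11a1. As CPM of the file this was 12.0 for Fcer1a, 39.7 for Kit and 49.1 for Hdc. The 4 named IS columns held 0.370 to 2.08 CPM for Fcer1a, 5.66 to 18.4 for Kit and 0.0568 to 1.80 for Hdc. Which sample these reads belong to was not tested.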

How the results depend on the processing

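The 9 genes kept log2 differences above 0 from the IS in every setting run: 1.05 to 6.82 for caput/corpus versus IS and 2.09 to 8.17 for cauda versus IS. For caput/corpus versus IS, 571 genes were called; the count was 1262 with DESeq2, 233 without the title series, 934 with limma on log2(RPKM + 1), 954 in the 8 samples without a file conflict, 0 with counts as filed, 0 in Maj3 alone, and 234 to 1353 with 1 library left out (lowest without caput/corpus replicate 2, highest without cauda replicate 1). For cauda versus IS, 2488 were called; the count was 1481 without the title series, 4 with counts as filed, 1144 in Maj4 alone, 30 in Maj3 alone, and 1641 (without IS replicate 3) to 3124 with 1 library left out. For caput/corpus versus cauda, 93 were called; the count was 184 with no filter, 637 with DESeq2, 143 and 188 with limma on log2(RPKM + 1) and log2(RPKM + 0.1), 52 in the 8 samples, 28 in Maj4 alone, 5 in Maj3 alone, 0 with counts as filed, and 29 (without caput/corpus replicate 1) to 205 (without cauda replicate 1) with 1 library left out. Of the 9 genes, 8 were called in caput/corpus versus IS, with 0 for counts as filed, 0 in Maj3 alone and 4 to 9 with 1 library left out; in cauda versus IS 9 were called, with 0 for counts as filed, 1 in Maj3 alone and 9 throughout with 1 library left out. Counts as filed gave 1166, 3098 and 992 genes at an unadjusted p under 0.05 for caput/corpus versus IS, cauda versus IS and caput/corpus versus cauda, and turned Lcn5 in cauda versus IS to 0.45 (adjusted p = 0.922, edgeR). The cause of these changes was not tested. Maj3 alone holds 5 libraries, with 1 from the caput/corpus, which is assumed to vary like the other regions. With the numbers in the sample names as a replicate block, 398, 2362 and 41 genes were called in the same order of comparisons, and 6, 9 and 0 of the 9, Mrgprb2 and Tph1 being past 0.05 in caput/corpus versus IS (edgeR adjusted p = 0.0911 and 0.0979). Libraries with the same number in the same title series correlated at 0.04 to 0.52 in their deviations from the region means. Among libraries of other regions, 9 of 11 correlated best with their own number. The title series was not removed from these deviations, so pairing and series cannot be told apart by this count. The labels do not say what the number marks, and 1 pair was under 0.1, so the block was kept as an alternative. Low read numbers limit the IS levels of the 9 genes, of which Mrgprb2 and Tph1 had libraries at 0.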

Other observations

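Over the 7 caput/corpus and cauda libraries alone, the genes most like the mean of the 9 were led by Mcm2, a DNA replication factor, at r = 0.993 and Padi2, a peptidylarginine deiminase, at 0.983, as a description over few libraries. Over all 11 libraries r was 0.572 for Mcm2 and 0.976 for Padi2. Mcm2 averaged 12.2 ± 1.04 RPKM in caput/corpus, 17.0 ± 3.91 RPKM in cauda and 12.6 ± 3.07 RPKM in IS libraries, so it was not lower in the IS than in the caput/corpus. Padi2 averaged 22 ± 0.449 RPKM in caput/corpus, 27.6 ± 4.13 RPKM in cauda and 16.0 ± 0.913 RPKM in IS libraries (SD, n = 3, 4 and 4).

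Of 6 markers of type 2 innate lymphoid cells and T cells, 5 were tested and none was called in caput/corpus or cauda versus IS (edgeR). Their sum was 14.3 to 18.8 RPKM in caput/corpus, 3.53 to 9.82 RPKM in cauda and 4.88 to 16.7 RPKM in IS libraries. Of 8 endothelial and stromal markers, 1, the smooth muscle actin gene Actg2, was called lower in both comparisons with the IS.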
